A study of Mus musculus with 12 samples.

Results

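The 10 genes described here encode the 5 subunits of the transcription factor NF-kB and 5 of the IkB proteins that bind it. They were chosen by gene symbol from the 24310 features measured in each library, and all 10 symbols were found. The subunits are Nfkb1, Nfkb2, Rela, Relb and Rel. The inhibitors of the classical kind are Nfkbia, Nfkbib and Nfkbie, and Nfkbiz and Bcl3 encode nuclear, atypical IkB proteins.

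NF-kB subunits work as dimers. In resting cells the classical IkB proteins hold dimers such as the product of Nfkb1 with that of Rela in the cytoplasm, and receptors such as TLR9 activate the IKK kinases, which mark IkB for destruction and free the dimer to enter the nucleus. In the non-canonical branch the kinase NIK drives processing of the Nfkb2 product, whose dimer with the Relb product then acts in the nucleus, a branch best known from B cells, dendritic cells and lymphoid organs. NF-kB induces several of its own regulators, among them Nfkbia, so that the messages of these genes are often read as a record of pathway activity.

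RNA was sequenced from CMM cells, a transplantable GFP-marked mouse acute myeloid leukaemia. The cells had been engrafted intravenously into C57BL/6 mice, and treatment started when about 1% of blood cells were GFP positive. Mice received 3 intravenous injections on alternate days, and 1 day after the last one the spleen was taken and its c-Kit positive cells were enriched by positive selection. The study asked how TLR9 stimulation combined with STAT3 inhibition acts on these cells.

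There were 3 labelled groups of 4 libraries, all from mice of the recipient strain carrying the same leukaemia. The label of the first is PBS, the vehicle. The second is labelled CpG-scrODN, a CpG oligonucleotide, which is a TLR9 ligand, joined to a scrambled control sequence. The third is labelled CpG-STAT3dODN, in which the CpG part is joined to a decoy that STAT3 binds. In the files the column headers name another group than the labels for every library: the libraries labelled PBS are headed DEC, those labelled CpG-scrODN are headed PBS, and those labelled CpG-STAT3dODN are headed SCR. Groups are therefore named by label throughout, and which treatment raised or lowered a gene is not stated. CMM is 1 leukaemia, an enriched c-Kit positive fraction can hold other spleen cells, and the labels do not say that each library is a separate mouse.

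Estimated depth was 31500000 to 36270000 reads per library, so that 1 RPKM (a read density per kilobase of transcript, scaled to library size) stood for at least 31.5 reads per kilobase. Replicate 4 labelled PBS and replicate 4 labelled CpG-STAT3dODN stood apart from the other 10 libraries. Fos, an immediate-early gene chosen here because of its values, stood at 12.9 and 5.91 RPKM in this pair and at 486 to 1156 RPKM elsewhere, and both are called the 2 libraries of low Fos below. Kit, the receptor used for the enrichment, was present in all 12, from 10.5 to 51.1 RPKM. Markers of B cells were present too, and their summed level was 224 to 834 RPKM under the label PBS, 15.3 to 37.0 RPKM under CpG-scrODN and 33.7 to 142 RPKM under CpG-STAT3dODN. In bulk RNA, fewer cells of a type and less RNA per cell cannot be told apart.

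NF-kB binds kappa B sites, and 4 promoters are shown because a match to that site lies just upstream of a start site, in 2 genes that were high in the libraries of low Fos (Nfkb2 and Rel) and 2 inhibitors that were not so in both (Nfkbia and Nfkbie). Each is the 130 bases just before an annotated start site, 5′ to 3′ on the strand of the gene, from the RefSeq promoter table for GRCm38.p6, and capitals mark matches to the kappa B consensus of 10 bases, searched on both strands, where matches that overlap are capitalised as 1 run. Nfkb2 is at chr19:46304607-46304736 on the plus strand, before 1 of its 3 annotated start sites in the table. Nfkbia is at chr12:55492648-55492777 on the minus strand. Nfkbie is at chr17:45555570-45555699 on the plus strand. Rel is at chr11:23770970-23771099 on the minus strand.
Nfkb2: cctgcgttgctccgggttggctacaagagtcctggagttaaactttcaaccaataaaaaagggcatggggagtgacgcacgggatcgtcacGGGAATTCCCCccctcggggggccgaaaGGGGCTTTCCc
Nfkbia: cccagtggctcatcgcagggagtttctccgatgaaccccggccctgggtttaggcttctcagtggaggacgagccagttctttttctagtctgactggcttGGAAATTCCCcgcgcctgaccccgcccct
Nfkbie: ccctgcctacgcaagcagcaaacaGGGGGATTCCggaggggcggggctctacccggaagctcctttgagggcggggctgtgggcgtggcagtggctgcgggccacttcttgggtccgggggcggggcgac
Rel: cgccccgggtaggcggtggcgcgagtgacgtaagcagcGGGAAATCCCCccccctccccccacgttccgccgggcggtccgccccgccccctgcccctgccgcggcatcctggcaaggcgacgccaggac

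The matches begin 39 and 11 bases before the start site in Nfkb2, 29 in Nfkbia, 106 in Nfkbie and 92 in Rel. Of the 10 genes, 7 were in the promoter table, and 5 of these held a match between 250 bases before and 50 bases after a start site. The fifth was Bcl3, whose match began 2 bases after the start site. Rela and Nfkbib held none in their windows. A match was held by 4.51% of all 32851 promoter windows and by 5.14% of the 27025 genes with a window. A match is a description of letters, and binding was not measured.

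All positions of genes are on GRCm38, which mm10 denotes. Nfkb1 lies on chromosome 3, from 135584655 to 135691969, Nfkbiz on chromosome 16, from 55811375 to 55838954, and Rel on chromosome 11, from 23736847 to 23770969. Rela and Nfkb2 both lie on chromosome 19, at 5637442 to 5648134 and at 46300994 to 46312400. Relb and Bcl3 are near each other on chromosome 7, at 19606217 to 19629438 and at 19808462 to 19822824, and Nfkbib lies farther along it, at 28758251 to 28766644. Nfkbia is on chromosome 12, from 55489409 to 55492647, and Nfkbie on chromosome 17, from 45555700 to 45563169.

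The order of the messages per kilobase was alike at its ends in the 3 groups. Nfkb1 had the highest median RPKM in each group, at 67.7 in the libraries labelled PBS, 83.7 in those labelled CpG-scrODN and 88.5 in those labelled CpG-STAT3dODN. Nfkbia came next, with medians of 61.2, 75.1 and 43.9 RPKM in the same order of groups. The ranges of Nfkb1 and Nfkbia overlapped in the groups labelled PBS and CpG-scrODN and did not in the group labelled CpG-STAT3dODN. Rela followed in each group, with medians of 29.3, 28.7 and 30.3 RPKM. Nfkb2, Nfkbib and Nfkbie followed with medians of 14.1 to 18 RPKM and overlapping ranges within each group, so their order is not set by these data. Relb, Nfkbiz and Bcl3 had medians of 2.59 to 8.26 RPKM, and Rel had the lowest median in each group, at 3.46, 1.84 and 2.45 RPKM.

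**Figure D1:**
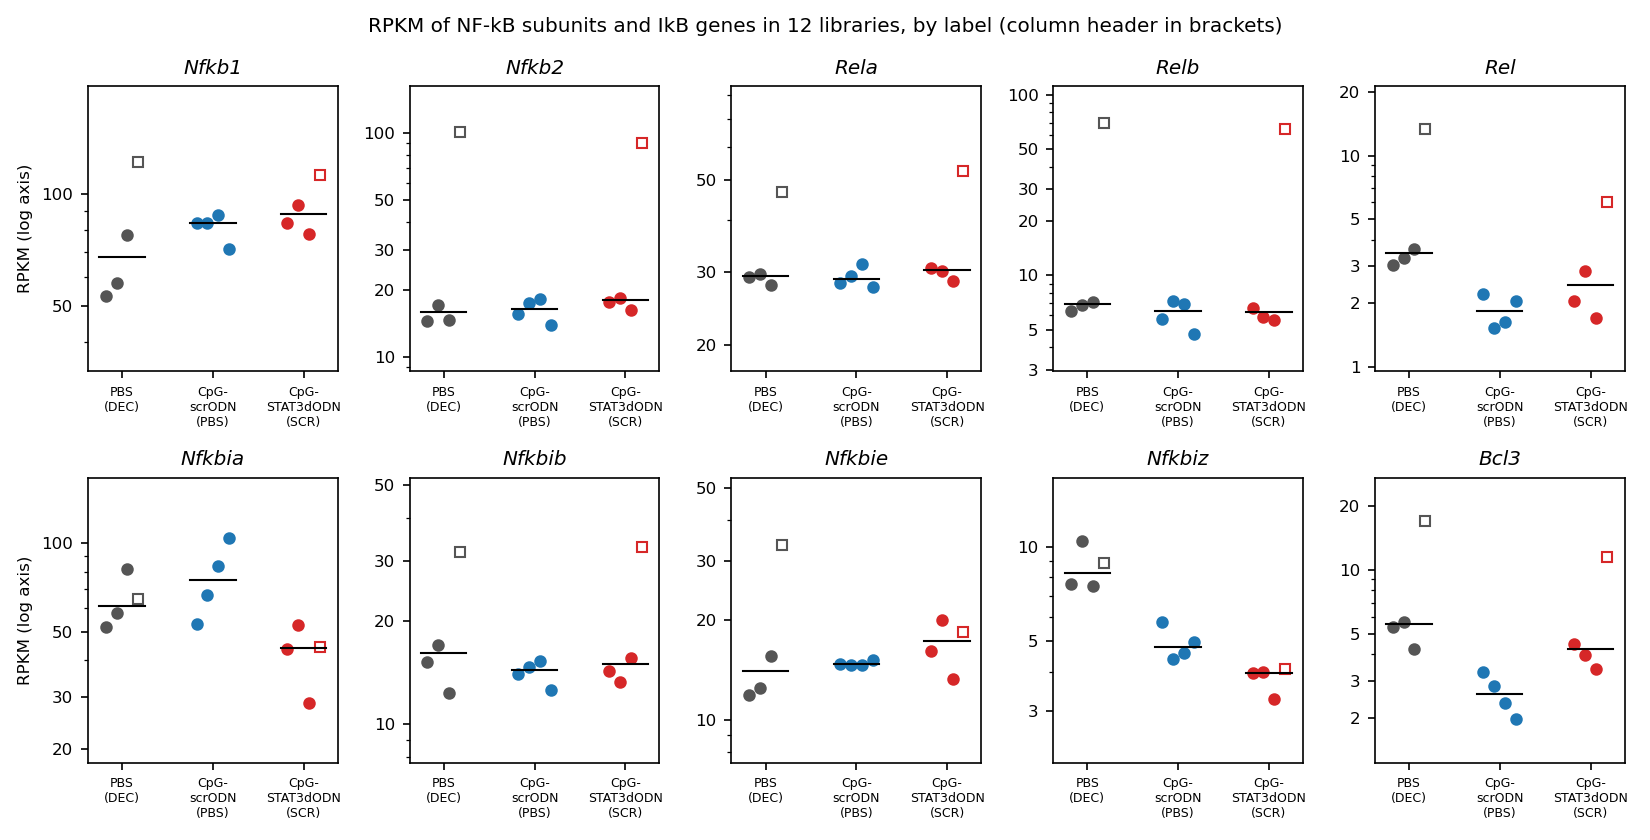
RPKM (log axis) of the 10 genes in each of the 12 libraries, by labelled group with the column header in brackets; each point is 1 library, the line is the group median and open squares are the 2 libraries of low Fos. Nfkbiz is higher in all 4 libraries labelled PBS, from 7.50 to 10.4 RPKM, than in the other 8, and the open squares of Relb and Nfkb2 lie far above all other points.

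Among the subunits of the classical dimers, Nfkb1 encodes the precursor of p50 and Rela encodes p65. Nfkb1 was at 53.3, 57.8, 77.6 and 123 RPKM in the libraries labelled PBS, at 83.5, 83.8, 88.2 and 71.0 in those labelled CpG-scrODN and at 83.5, 93.4, 78.1 and 113 in those labelled CpG-STAT3dODN. The 2 libraries of low Fos were the highest of the 12, and the 3 groups overlapped. Rela lay between 27.6 and 31.2 RPKM in 10 libraries, the narrowest relative spread among the subunits in those 10, and was at 46.7 and 52.5 RPKM in the 2 libraries of low Fos. Neither gene passed the test in any comparison in the fit of all 12 libraries without weights, and the intervals of their differences are given with the other comparisons below.

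Rel encodes c-Rel, a subunit abundant in lymphocytes. It was at 3.05, 3.29, 3.63 and 13.3 RPKM in the libraries labelled PBS, at 2.21, 1.52, 1.63 and 2.05 in those labelled CpG-scrODN and at 2.05, 2.85, 1.69 and 6.03 in those labelled CpG-STAT3dODN. All 4 libraries labelled PBS lay above all 4 labelled CpG-scrODN, while the third group overlapped both. The lowest value stood for about 54.0 reads per kilobase, so Rel was measured above the level where single reads matter.

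The non-canonical pair, Nfkb2, which encodes the precursor of p52, and Relb, which encodes its usual partner, were high in the same libraries. Relb was at 6.33, 6.80, 7.08 and 69.8 RPKM in the libraries labelled PBS, at 5.73, 7.21, 6.95 and 4.70 in those labelled CpG-scrODN and at 6.55, 5.90, 5.65 and 64.9 in those labelled CpG-STAT3dODN. Nfkb2 was at 14.5, 17.1, 14.7 and 101 RPKM in the libraries labelled PBS, at 15.5, 17.3, 18.1 and 13.8 in those labelled CpG-scrODN and at 17.6, 18.4, 16.1 and 90.0 in those labelled CpG-STAT3dODN. For both genes the 2 libraries of low Fos were high and the other 10 lay together, in all 3 groups.

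Against the median of the other 3 libraries of its own group, replicate 4 was 10.3-fold higher for Relb in the group labelled PBS and 11-fold higher in the group labelled CpG-STAT3dODN. For Nfkb2 the same ratios were 6.91 and 5.13, for Rel 4.06 and 2.95, and for Bcl3 3.16 and 2.91. Nfkbib followed with 2.08 and 2.29, Nfkb1 with 2.12 and 1.35 and Rela with 1.6 and 1.75. For Nfkbie the ratio was 2.68 in the group labelled PBS and 1.14 in the other. Nfkbia and Nfkbiz were near their group's level in both libraries, with ratios of 1.12 and 1.02 for Nfkbia and of 1.17 and 1.03 for Nfkbiz. In 7 of the 10 genes both libraries lay above each of the other 10, against 23.4% of the 10886 genes tested. These ratios are set between single libraries and have no test.

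The make-up of the summed subunit message differed in these 2 libraries. The sum of the 5 subunit genes was 354 and 326 RPKM in them, against 106 to 151 RPKM in the other 10. Relb made up 19.7% and 19.9% of this sum, against 3.92% to 5.96% in the other 10, and Nfkb2 28.7% and 27.6%, against 11.2% to 15%. Nfkb1 made up 34.6% in both, against 50.1% to 62.0%. The ratio of Relb to Rela was 1.49 and 1.23 in the 2 libraries and 0.170 to 0.255 in the other 10, and the ratio of Nfkb2 to Nfkb1 was 0.827 and 0.798 against 0.186 to 0.296. The shares are of message per kilobase, not of protein.

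**Figure D2:**
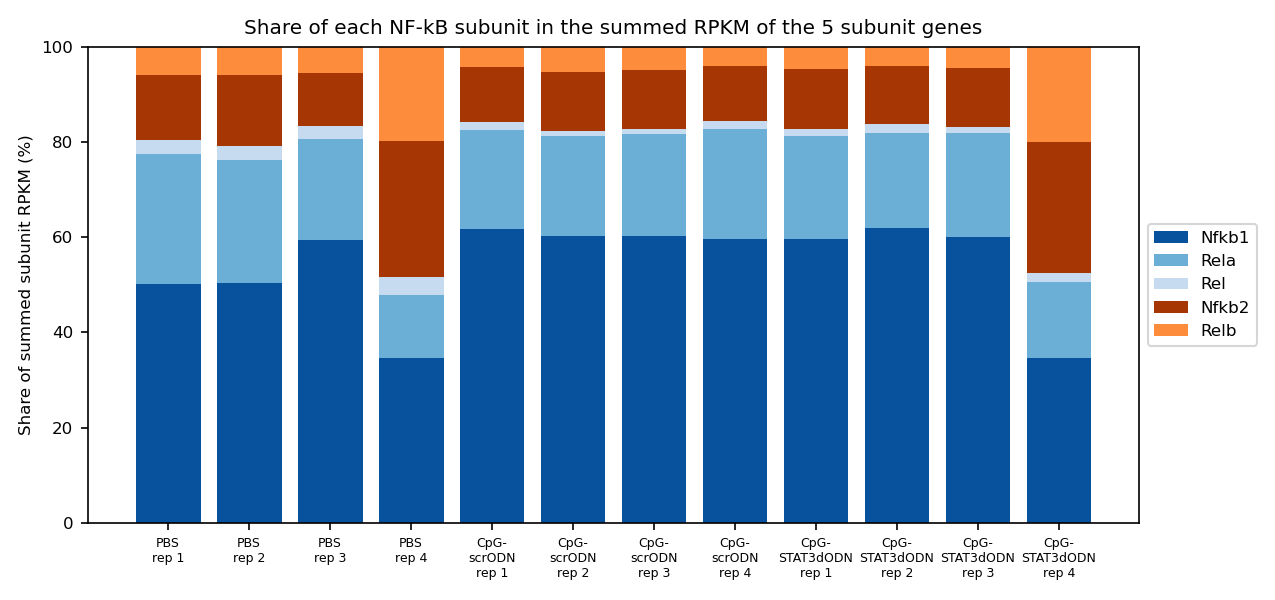
Share (%) of each subunit gene in the summed RPKM of the 5 subunit genes, with 1 bar per library and the label and replicate under it. Relb and Nfkb2 take larger shares in replicate 4 labelled PBS and replicate 4 labelled CpG-STAT3dODN, where Relb reaches 19.7% and 19.9%, than in the other 10 libraries.

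Of the classical inhibitors, Nfkbia encodes IkB alpha, the fast-acting inhibitor that NF-kB itself induces. It was at 51.6, 57.6, 81.8 and 64.7 RPKM in the libraries labelled PBS, at 53.0, 66.3, 83.8 and 104 in those labelled CpG-scrODN and at 43.5, 52.6, 28.6 and 44.3 in those labelled CpG-STAT3dODN. All 4 libraries labelled CpG-STAT3dODN lay below all 4 labelled CpG-scrODN, by a narrow gap between 52.6 and 53.0 RPKM, and the group labelled PBS overlapped both. The group means were 64.0 ± 13.1, 76.9 ± 22.3 and 42.3 ± 9.99 RPKM (SD, n = 4 each). The ratio of Nfkbia to the summed subunit message was 0.220 to 0.875 in 10 libraries and lower, at 0.183 and 0.136, in the 2 libraries of low Fos.

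Nfkbib and Nfkbie encode IkB beta and IkB epsilon, which respond more slowly than IkB alpha. Nfkbib was at 12.3 to 17 RPKM in 10 libraries and at 31.7 and 32.8 RPKM in the 2 libraries of low Fos. Nfkbie was at 11.9, 12.5, 15.6 and 33.5 RPKM in the libraries labelled PBS, at 14.6 to 15.2 in those labelled CpG-scrODN and at 16.2, 20.01, 13.3 and 18.4 in those labelled CpG-STAT3dODN. In neither gene did any pair of groups separate.

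Of the atypical IkB genes, Nfkbiz passed the test in both comparisons with the libraries labelled PBS. Nfkbiz encodes IkB zeta, a nuclear protein that NF-kB induces and that in macrophages is needed for a second wave of genes such as Il6. It was at 7.61, 10.4, 7.50 and 8.91 RPKM in the libraries labelled PBS, at 5.77, 4.40, 4.6 and 4.97 in those labelled CpG-scrODN and at 3.95, 4.0, 3.28 and 4.08 in those labelled CpG-STAT3dODN. The 3 groups did not overlap, with the libraries labelled PBS highest and those labelled CpG-STAT3dODN lowest. The means were 8.61 ± 1.36, 4.94 ± 0.604 and 3.83 ± 0.369 RPKM (SD, n = 4 each).

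Bcl3 encodes a nuclear protein that binds p50 and p52 homodimers. It was at 5.39, 5.66, 4.24 and 17 RPKM in the libraries labelled PBS, at 3.31, 2.84, 2.35 and 1.96 in those labelled CpG-scrODN and at 4.45, 3.96, 3.40 and 11.5 in those labelled CpG-STAT3dODN. The libraries labelled CpG-scrODN were the lowest 4 of the 12, and the other groups overlapped, each with its replicate 4 on top.

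In the comparison of CpG-scrODN with PBS, as labelled, Nfkbiz was the member that changed. The labels make this a test of the CpG oligonucleotide with the scrambled sequence, and the headers a test of PBS against the decoy. It was lower in the libraries labelled CpG-scrODN, with a difference of -0.69 ± 0.11 on the log2(RPKM + 1) scale (SE), with a 95% interval of -0.94 to -0.44 and an adjusted p of 0.00417 in limma. It was the 1 member of 10 to pass an adjusted p of 0.05, where 4.15% of the 10886 genes tested did and 4.04% did so by being lower. With quantile normalization 75 genes were higher and 318 lower, against 12 and 440 without scaling. On the same scale Rel differed by -1.04 ± 0.39 (SE, limma adjusted p = 0.215) and Bcl3 by -1.15 ± 0.39 (SE, limma adjusted p = 0.158), and neither passed although both groups were separate in each gene. In all, 3 of 10 members had an unadjusted p under 0.05, against 15.6% of genes, and 3 had groups that did not overlap, against 13.9%. The median difference of the 10 members was -0.46, against -0.05 over all genes tested.

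Without the 2 libraries of low Fos, 3 members were lower in the libraries labelled CpG-scrODN, against 6.3% of genes called and 5.28% called lower. Nfkbiz differed by -0.67 ± 0.12 (SE, limma adjusted p = 0.00772), Rel by -0.60 ± 0.13 (SE, limma adjusted p = 0.0227) and Bcl3 by -0.76 ± 0.14 (SE, limma adjusted p = 0.0081). The differences of Rel and Bcl3 were smaller than with all libraries, and so were their standard errors. The median difference of the 10 members was then -0.02, against -0.03 over all genes. Nfkb1 differed by 0.38 ± 0.13 (SE, limma adjusted p = 0.126) and did not pass. With all 12 libraries and array quality weights, which give less weight to libraries far from their group, Nfkbiz, Rel, Bcl3 and Nfkb1 were called, 4 of 10 members against 16.6% of genes.

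In the comparison of CpG-STAT3dODN with PBS, as labelled, Nfkbiz was again lower. It shares its 4 libraries labelled PBS with the comparison before, so values are given side by side with no test between them. Nfkbiz differed by -0.99 ± 0.11 (SE) with a 95% interval from -1.23 up to -0.74 (limma adjusted p = 0.000849). It was the 1 member of 10 called, where 1.86% of genes were called and 1.83% were lower. Nfkbia differed by -0.60 ± 0.23 (SE), with an interval of -1.10 to -0.10 and a limma adjusted p of 0.361, and did not pass. Rel differed by -0.59 with an interval of -1.45 to 0.26, and Bcl3 by -0.36 with an interval of -1.22 to 0.50. In all, 2 of 10 members had an unadjusted p under 0.05, against 9.4% of genes, and Nfkbiz was the 1 member whose groups did not overlap, against 5.04%.

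Leaving out the 2 libraries of low Fos, Nfkbiz differed by -0.99 ± 0.13 (SE, limma adjusted p = 0.00184) and was the 1 member called, with 3.1% of genes called and 2.71% called lower. Rel then differed by -0.45 ± 0.14 (SE, limma adjusted p = 0.154) and Nfkb1 by 0.44 ± 0.14 (SE, limma adjusted p = 0.146). The median difference of the members was -0.07 with all 12 libraries and -0.09 without these 2, against -0.01 over all genes in both. With all 12 libraries and array quality weights Nfkbiz and Nfkb1 were called, against 11.5% of genes.

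Between CpG-STAT3dODN and CpG-scrODN, by the labels the decoy and its scrambled control, no gene passed in limma, member or not (0% called), while 2.71% of all genes and 2 of the 10 members had an unadjusted p under 0.05. Nfkbia differed by -0.83 ± 0.23 (SE), with an interval of -1.33 to -0.34, and its limma adjusted p was 0.96. Nfkbiz differed by -0.30 with an interval of -0.54 to -0.05 and Bcl3 by 0.80 with an interval of -0.06 to 1.65. In these 3 members the groups did not overlap, against 4.25% of genes. Without the 2 libraries of low Fos, Nfkbia differed by -0.87 (limma adjusted p = 0.875) and Bcl3 by 0.46 (limma adjusted p = 0.875), and again no gene was called, with 5.24% at an unadjusted p under 0.05. With all 12 libraries and array quality weights Nfkbia and Bcl3 were called, at limma adjusted p of 0.00856 and 0.0152, against 5.58% of genes.

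**Figure D3:**
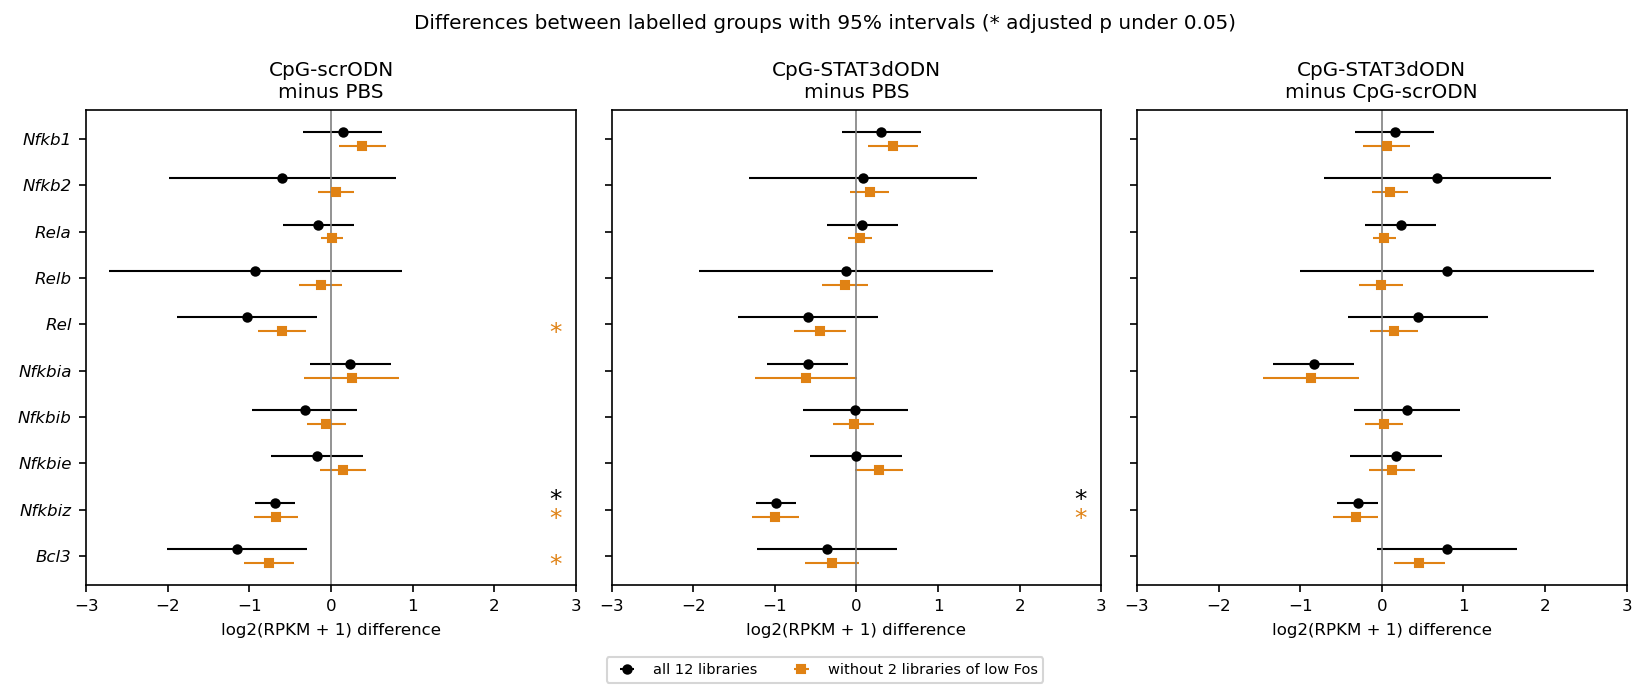
Difference of each gene between labelled groups on the log2(RPKM + 1) scale, with 95% intervals from limma, in all 12 libraries (circles) and without the 2 libraries of low Fos (squares); an asterisk marks an adjusted p under 0.05. Nfkbiz is called in both comparisons with PBS in either set of libraries, and the intervals of Relb and Nfkb2 narrow most without the 2 libraries.

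For Relb and Rela the intervals show how much these libraries could resolve. With all 12 libraries, the interval of Relb ran from -2.73 to 0.87 for CpG-scrODN against PBS, from -1.93 to 1.67 for CpG-STAT3dODN against PBS and from -1.0 to 2.60 for CpG-STAT3dODN against CpG-scrODN. In the other 10 libraries the same intervals were -0.40 to 0.14, -0.42 to 0.15 and -0.28 to 0.26. The intervals of Rela, -0.59 to 0.28 for CpG-scrODN against PBS with all libraries, became -0.13 to 0.15. Differences of Relb or Rela beyond these limits were not detected in the 10 libraries that lie together.

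Levels of other cells' markers moved with several of these results. Of 17 B-cell genes 16 passed the filter, and all 16 were lower in the libraries labelled CpG-scrODN than in those labelled PBS, as Nfkbiz was, and 13 of the 16 were lower in those labelled CpG-STAT3dODN. None of the 17 was at 0 throughout a group. Under the label PBS, T-cell markers summed to 19.98 to 60.5 RPKM, against 5.21 to 9.01 in the other 8. Within the PBS group the summed B-cell level was highest, at 834 RPKM, in replicate 4, where Nfkbiz was at 8.91 RPKM, and lowest, at 224 RPKM, in replicate 2, where Nfkbiz was highest, at 10.4 RPKM. In the group labelled CpG-scrODN the B-cell sum was highest, at 37.0 RPKM, in replicate 1, where Nfkbiz was highest too, at 5.77 RPKM. It was lowest, at 15.3 RPKM, in replicate 4, where Nfkbiz was next highest, at 4.97 RPKM. In the group labelled CpG-STAT3dODN the B-cell sum was 142 RPKM in replicate 4 and 33.7 to 61.2 in the other 3. Nfkbiz was at 4.08 RPKM in that replicate 4 and at 3.28 to 4.0 in the other 3. Markers of further lists were lower in the libraries labelled CpG-scrODN than in those labelled PBS too, 3 of 5 measured plasma cell genes, 2 of 8 monocyte and macrophage genes and 4 of 10 leukaemic progenitor genes, Mpo among them with a difference of -2.08 (limma adjusted p = 0.00139). Their summed levels, over PBS, CpG-scrODN and CpG-STAT3dODN in turn, were 60.9 to 102, 8.06 to 23.5 and 23.5 to 29.8 RPKM for plasma cells, 309 to 545, 162 to 254 and 232 to 434 for monocytes and macrophages, and 427 to 558, 215 to 289 and 285 to 445 for leukaemic progenitors. The leukaemic progenitor list had a median difference of -0.29 between CpG-scrODN and PBS. Kit, also in that list, went the other way, at 0.75 (limma adjusted p = 0.319), and did not pass. Of the T cell list 3 of 4, of the mast cell and basophil list 2 of 5, and of the stroma list the 1 gene measured, were lower as well in the libraries labelled CpG-scrODN. The mast cell and basophil list as a whole went the other way, with a median difference of 0.49. Its sum was 490 to 2335 RPKM under the label PBS and 2029 to 3706 RPKM under CpG-scrODN. The mature neutrophil, NK cell, dendritic cell, erythroid, and megakaryocyte and platelet lists had no gene called in this comparison. Their median differences were -1.30, -0.71, -0.59, -0.51 and 1.27 in that order. The mature neutrophil sum was 1720 to 5161 RPKM under the label PBS and 527 to 2206 RPKM under CpG-scrODN. Between CpG-STAT3dODN and PBS 2 plasma cell genes, 3 T cell genes and the stroma gene were lower, and 0 genes of the monocyte and macrophage, mast cell and basophil, and leukaemic progenitor lists. A marker could pass the filter through the libraries labelled PBS alone, so the counts of these lists and the filter are not independent. The part of these cells in the results was not tested.

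Relb and the B-cell sum are given together here. In the 3 libraries labelled PBS other than replicate 4 the B-cell sum was 224 to 346 RPKM and Relb was at 6.33 to 7.08 RPKM, while in replicate 4 labelled CpG-STAT3dODN the B-cell sum was lower, at 142 RPKM, and Relb was at 64.9 RPKM. Summed immediate-early and heat shock genes were at 433 and 439 RPKM in the 2 libraries of low Fos, against 2376 to 6040 in the other 10. The sum includes Fos, whose values name these 2 libraries, so the gap is partly set by that choice. The part of B cells, RNA quality or handling in these values was not tested.

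**Figure D4:**
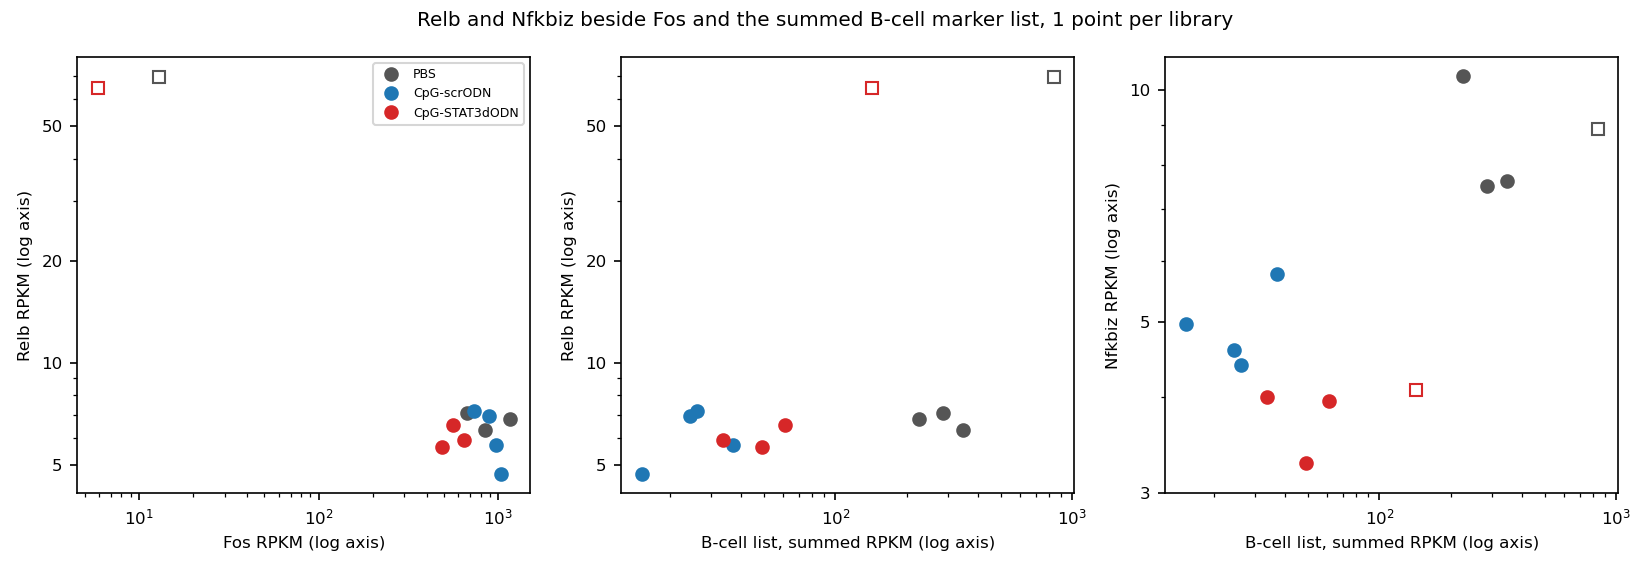
Relb RPKM against Fos RPKM (left), and Relb (middle) and Nfkbiz (right) RPKM against the summed RPKM of the 17-gene B-cell list, all on log axes, with 1 point per library coloured by label and open squares for the 2 libraries of low Fos. Relb is high in the 2 libraries of low Fos, at a B-cell sum of 142 RPKM in one and 834 RPKM in the other, and Nfkbiz is high in the 4 libraries labelled PBS.

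The other genes of the pathway were read from 4 lists. Of 15 IKK and upstream kinase genes, all measured, 3 were lower in the libraries labelled CpG-scrODN than in those labelled PBS and none was higher. The share of all genes called lower was 4.04% in this comparison and 1.83% in that of CpG-STAT3dODN with PBS, and the counts of all 4 lists stand beside it. Their differences were, for Map3k14, which encodes NIK, -1.13 (limma adjusted p = 0.0118), for Ikbke, an IKK-related kinase, -0.98 (limma adjusted p = 0.000369), and for Map3k8, which encodes the kinase TPL2, -0.91 (limma adjusted p = 0.000265). In the libraries labelled CpG-STAT3dODN Map3k8 differed by -0.72 and Ikbke by -0.64, both called, and Map3k14, at -0.87, did not pass. Without the 2 libraries of low Fos Map3k14 differed by -0.79 and passed (limma adjusted p = 0.00148), as it did without replicate 4 labelled CpG-STAT3dODN alone, with array quality weights and with the replicate block. The median difference of the list was -0.03 in both, against -0.05 and -0.01 over all genes, and 0.01 in both without the 2 libraries of low Fos. Map3k14 was at 2.53 to 6.20 RPKM in the libraries labelled PBS and at 0.898 to 1.18 in those labelled CpG-scrODN, and the other kinases of the list, with the core IKK genes Chuk, Ikbkb and Ikbkg, did not pass. Map3k8 was at 2.20 to 2.47 RPKM in the libraries labelled PBS and at 0.686 to 0.897 in those labelled CpG-scrODN. Map3k8 passed the filter only through the libraries labelled PBS, so its calls and the filter are not independent.

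Of 17 adaptors and ubiquitin ligases, 1 was lower in the libraries labelled CpG-scrODN, Card9, an adaptor of C-type lectin receptors, with a difference of -0.99 (limma adjusted p = 0.00949), and none in those labelled CpG-STAT3dODN. Of 16 further IkB-like proteins and negative regulators 15 were measured, and 2 were lower in the libraries labelled CpG-scrODN. These were Pdlim2, a ligase that acts on Rela protein, with a difference of -1.0 (limma adjusted p = 0.00139) and Irak3, an inhibitor of Toll-like receptor signalling, with -0.60 (limma adjusted p = 0.0354). Pdlim2 was also lower in the libraries labelled CpG-STAT3dODN, with a difference of -0.86 (limma adjusted p = 0.00733). The medians of the adaptors were -0.20 and -0.02, and those of the regulators -0.25 and -0.07. Without the 2 libraries of low Fos they were -0.09 and -0.01 for the adaptors and -0.02 and -0.06 for the regulators. The adaptor count, 1 of 17, is near the share of all genes called.

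Of 35 textbook target genes, 25 passed the filter, and 4 were lower in the libraries labelled CpG-scrODN, with a list median of -0.54. These were Cd83, a surface protein of activated B cells and dendritic cells, with a difference of -3.40 (limma adjusted p = 0.0313), Ccl5, a chemokine, with -1.69 (limma adjusted p = 0.00379), Cd40, a receptor of the TNF family, with -1.60 (limma adjusted p = 0.00243), and Ccl3, a chemokine, with -1.31 (limma adjusted p = 0.0156). Cd83 and Cd40 were at 9.02 to 69.7 and 2.13 to 4.89 RPKM in the libraries labelled PBS. In those labelled CpG-scrODN they were at 0.584 to 0.920 and 0.245 to 0.307 RPKM. Both passed the filter only through the libraries labelled PBS, so their calls and the filter are not independent. In the libraries labelled CpG-STAT3dODN Ccl5 and Cd40 were lower, with differences of -1.25 and -1.21, with a list median of -0.58. Cd40 was at 0.293 to 1.80 RPKM there. Without the 2 libraries of low Fos, 9 and 7 targets were lower, where 5.28% and 2.71% of all genes were, and the list medians were -0.39 and -0.51. Cd40, Traf1 and Ccr7, in both counts, and Cd86, in the first, passed a filter set on all 12 libraries. In the other 10 libraries they reached 1 RPKM only under the label PBS, and in too few for that filter. Their calls and these counts are therefore not independent of the filter. No gene of the 4 lists was higher in these comparisons, and none was called between the other 2 groups, except with array quality weights, where 2 kinases, 1 adaptor, 2 regulators and 4 targets were called, against 5.58% of genes. When 1 library at a time was left out, the call of Irak3 was lost in 8 of 12 cases, that of Cd83 in 6, that of Ccl3 in 2, and those of Ccl5 and Cd40 under the label CpG-STAT3dODN in 10 and 4. The part of the B-cell and T-cell markers that moved in the same direction was not tested.

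Across the 12 libraries, the genes whose levels were most like those of Nfkbia among 10197 ranked were Dusp2, Hist2h2aa1, Nr4a2, Tnfaip3 and Cd69, with Pearson r of 0.93, 0.85, 0.83, 0.80 and 0.80. In the 10 libraries without the 2 of low Fos the values were 0.93, 0.89, 0.88, 0.93 and 0.83. For Nfkbiz they were H2-Q5, Plk2, Sik1, Hspb6 and Gla, with r of 0.92, 0.91, 0.90, 0.89 and 0.89, and of 0.93, 0.89, 0.94, 0.91 and 0.89 in the 10 libraries. The libraries of a group share a label, so these are descriptions over libraries in 3 labelled groups, with no test.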

How the data were processed

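RNA-seq values of 12 libraries were used as the authors deposited them, in RPKM, 24310 features per library. The submitters' processing notes name TopHat 1.3.1, Partek 6.12.0713 and mm10 without roles; filters and the annotation were not given in the sources used here. Groups came from the labels, and column headers differed from them in all 12 files. The members and gene lists were chosen with earlier results of these data known.

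Tests used log2(RPKM + 1), on which changes of low genes look smaller than they are. A gene was kept where 4 of the 12 libraries reached an RPKM of 1, which left 10886, all 10 members included. The labelled groups were fitted together with limma 3.58.1 (R 4.3.3), with moderated variances, an intensity trend, two-sided tests and Benjamini-Hochberg adjustment over all kept genes in each comparison at 0.05. Intervals are 95% and unadjusted. The model was tested on simulated data. Nothing says that libraries are separate mice, so p-values cover the spread between these samples alone, and that spread can be technical. No 2 libraries held identical values.

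Depth was estimated in single-transcript genes, with transcript lengths from GENCODE. It was the depth at which the largest share of values of up to 12 reads came out whole. Of low values, 59.6% to 63.1% came out whole within 0.05 of a read, too few to recover reads, so no count test was run. All 10 members were named, with up to 6 called genes per pathway list, and the 5 genes of most like pattern for Nfkbia and Nfkbiz. Other genes named were chosen after their values were seen. Promoters came from RefSeq. Alternatives covered the pseudocount (0.1), the filter, the scaling, library weights, the samples in the fit, a replicate block and left-out libraries.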

Additional observations from a re-analysis of the deposited data

Results flagged for a closer look

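In each group of 4 libraries, the gap between the highest or lowest value and its nearest neighbour was compared with the whole range. Over the 10 members and 3 groups, 11 of 30 such groups held a library far from the other 3, against a nominal rate of about 1 in 20 for a single independent group. In replicate 4 labelled PBS these were Nfkb2 at 101 RPKM, Rela at 46.7, Relb at 69.8, Rel at 13.3 and Bcl3 at 17.04. In replicate 4 labelled CpG-STAT3dODN they were Nfkb2 at 90.0 RPKM, Rela at 52.5, Relb at 64.9, Nfkbib at 32.8 and Bcl3 at 11.5. All 10 of these were high, and they fall in the 2 libraries of low Fos. The eleventh was low: Nfkbiz at 3.28 RPKM in replicate 3 labelled CpG-STAT3dODN. None fell in the libraries labelled CpG-scrODN. The rule was not run over all genes. Both libraries of low Fos lay above each of the other 10 in 23.4% of all genes tested and below each of them in 18.8%. The 30 groups share these libraries, so 11 of 30 is not an excess shown for the members.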

How the results depend on the processing

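Nfkbiz was called in all 22 alternatives in the first comparison (CpG-scrODN with PBS), with differences of -0.78 to -0.59, and in all 22 in the second (CpG-STAT3dODN with PBS), with differences of -1.14 to -0.90. With array quality weights, 4 members were called in the first comparison (Nfkbiz, Rel, Bcl3 and Nfkb1), 2 in the second (Nfkbiz and Nfkb1) and 2 in the third (CpG-STAT3dODN with CpG-scrODN), where Nfkbia differed by -0.79 (adjusted p = 0.00856) and Bcl3 by 0.55 (adjusted p = 0.0152). Without both libraries of low Fos, and without all 3 libraries numbered 4, 3 members were called in the first (Nfkbiz, Rel and Bcl3). The cause of these changes was not tested. With the replicate number as a block, Nfkbiz differed by -0.69 (limma adjusted p = 0.00816) and -0.99 (limma adjusted p = 0.0029), the calls of members did not change, and the all-gene counts were 523, 213 and 0, with 8 targets called in the first comparison against 4. Whether the numbers pair the libraries cannot be told from these values. Same-number correlations of deviations ran from -0.34 to 0.82, with 5 of 12 above 0.1, and 3 libraries correlated best with their own number. The highest, 0.82, was between the 2 libraries of low Fos, and the other correlations among libraries numbered 4 were 0.19 and 0.15. A batch or cohort shared by libraries of 1 number was not tested.

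Counts over all genes moved by more than 1.5 times from 452, 202 and 0. They were 163 and 76 in the first 2 comparisons with an RPKM minimum of 5. With array quality weights they were 1812, 1248 and 607. With 2 groups only they were 78 in the second and 1 in the third. Without both libraries of low Fos they were 686 and 337, and without all 3 libraries numbered 4 the second was 392. Without replicate 3 labelled CpG-scrODN the first was 279. Without replicate 1 labelled PBS or replicate 2 labelled CpG-STAT3dODN the second was 131 and 121. Of the pathway lists, targets called ranged from 1 to 14 and from 0 to 12 over the alternatives in the comparisons with PBS, kinases from 0 to 5 in both, regulators from 0 to 4 and 0 to 3, and adaptors from 1 to 2 in the first, with 0 in the second throughout. The 0 of the kinases and regulators came with the RPKM minimum of 5, which took Map3k14, Ikbke, Map3k8, Pdlim2 and Irak3 out of the test. Map3k8 and Pdlim2 were called in all 21 alternatives that tested them, in both comparisons. Map3k8 passed the filter only through the libraries labelled PBS, so its calls where the filter was kept are not independent of it. In the third, array quality weights called 2 kinases, 1 adaptor, 2 regulators and 4 targets, and the other alternatives called 0. With no filter, genes at 0 in every library were left out.

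Differences were uncalled in each setting where their sign changed, though Nfkb1 in the first comparison was called, at 0.51, with array quality weights. In the first comparison, array quality weights gave Nfkb2 0.042, Nfkbie 0.16 and Rela 0.0096. Without both libraries of low Fos these were 0.063, 0.15 and 0.011, and without all 3 libraries numbered 4 they were 0.13, 0.14 and 0.035. Leaving out 1 library at a time gave -0.011 to 0.38 for Nfkb1, -0.84 to 0.063 for Nfkb2, -0.33 to 0.15 for Nfkbie and -0.23 to 0.011 for Rela. In the second comparison, leaving out 1 library gave -0.70 to 0.035 for Bcl3, -0.50 to 0.74 for Nfkb2, -0.30 to 0.25 for Nfkbib, -0.16 to 0.32 for Nfkbie, -0.13 to 0.24 for Rela and -0.94 to 0.67 for Relb. Nfkbib was at 0.0062 with median-ratio size factors. Nfkbie was at 0.0037 with a pseudocount of 0.1, 0.0055 with quantile normalization, 0.019 with median-ratio size factors, 0.27 with array quality weights and 0.28 without the pair of low Fos, as without the 3 libraries numbered 4. In the third, array quality weights gave Nfkb1 -0.028, Nfkbib -0.019 and Relb -0.047. Without all 3 libraries numbered 4 these were -0.0063, -0.026 and -0.11, and without both libraries of low Fos Relb was at -0.010, with -0.010 to 1.09 when 1 library was left out.

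Depth limits the lowest gene, Rel, least covered at about 54.0 reads per kilobase. Group labels and column headers disagree, so a direction is one between labelled groups.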

Other observations

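Some other genes of the pathway were high in the same 2 libraries of low Fos, and those named here were chosen after their values were seen. Traf1, an adaptor that NF-kB induces, was at 58.8 RPKM in replicate 4 labelled PBS and 51.7 in replicate 4 labelled CpG-STAT3dODN, against 0.497 to 2.97 RPKM in the other 10. Cd83 was at 69.7 and 21.1 RPKM in these 2 libraries, Ccr7, a chemokine receptor of lymphocytes and mature dendritic cells, at 45.4 and 14.1, and Cd86, a co-stimulatory ligand, at 24.7 and 8.07. Birc3, a ubiquitin ligase of the non-canonical branch, was at 33.4 and 25.3 RPKM against 9.75 to 17.6, and Tnip1, which binds the inhibitor encoded by Tnfaip3, at 29.5 and 29.4 against 10.1 to 14.6. Both libraries lay above each of the other 10 in 4 of 15 kinases, 7 of 17 adaptors, 8 of 15 further regulators and 9 of 25 targets, against 23.4% of all genes tested, which the kinases are near. Both lay below the other 10 in 1 kinase, 3 adaptors, 0 further regulators and 2 targets, against 18.8% of all genes.

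Tnfaip3, which encodes the deubiquitinating inhibitor A20, did not follow them. It was at 40.6, 57.9, 63.3 and 24.9 RPKM in the libraries labelled PBS, at 74.4, 73.4, 106 and 161 in those labelled CpG-scrODN and at 38.9, 47.8, 22.1 and 23.4 in those labelled CpG-STAT3dODN. The libraries labelled CpG-scrODN were the highest 4 of the 12, and the other groups overlapped. Its difference between CpG-scrODN and PBS was 1.14 ± 0.35 in log2(RPKM + 1) (SE, limma adjusted p = 0.111) and did not pass.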
